A study of Arabidopsis thaliana with 13 samples.

Results

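The 39 genes described here make, break down or transmit cytokinin, a plant hormone, and were taken by their locus names from the 33560 genes of the deposited table. They are 4 isopentenyltransferases (IPT), 6 LOG enzymes, 7 cytokinin oxidases (CKX), 3 receptor kinases (AHK), 5 phosphotransfer proteins (AHP), 4 type-B response regulators and 10 type-A response regulators (ARR). All 39 loci were in the table and carried their symbols in the RefSeq annotation of the TAIR10.1 assembly. An expression level of at least 1 FPKM (fragments for each kilobase of transcript and each M mapped fragments, M standing for mega) in at least 3 libraries was reached by 30 of the 39. Those 30 were tested, and IPT1, IPT3, LOG5, CKX1, CKX2, CKX3, ARR15, ARR16 and ARR17 were not.

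Cytokinin synthesis begins with isopentenyltransferases, LOG enzymes release the active free bases from their nucleotides, and cytokinin oxidases degrade them. AHK receptors pass a phosphate through AHP proteins to type-B response regulators, which are transcription factors, and the type-A genes they switch on act back as negative regulators. In the root tip the hormone is known for moving cells from division to differentiation, and so for setting the size of the meristem, opposite to auxin.

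The samples were root cells of Arabidopsis thaliana (Col-0), protoplasted at 5 days and sorted by fluorescence. QC-marker cells expressed GFP from WOX5::GFP, named after a homeobox gene of the quiescent centre, the slowly dividing cells at the heart of the niche. CEI-marker cells expressed CYCD6::GUS-GFP, named after the D-type cyclin gene CYCD6;1. There were 4 libraries of wox5-1 QC-marker cells, 3 of wild-type QC-marker cells, 3 of wox5-1 CEI-marker cells and 3 of wild-type CEI-marker cells. The wox5-1 allele disrupts WOX5, so its QC-marker cells were picked by the reporter of the gene they lack. The labels call the libraries biological replicates and do not say how many plants went into one. The columns of CEI-marker cells carry the numbers 1, 2 and 4 (wox5-1) and 1, 3 and 4 (wild type), used here as names. In such bulk samples, fewer cells of a type and less RNA per cell cannot be told apart.

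The libraries differed in depth and in cell markers. The QC-marker libraries held an estimated 24.8 to 38.3 M fragments in wox5-1, against 5.99 to 7.77 M in the wild type, and the CEI-marker libraries at least 18.2 M in wox5-1, against at least 19.6 M in the wild type. Wild-type QC-marker library 2 listed 17 of the 39 cytokinin genes at 0, library 3 listed 12, and the other 11 libraries listed 2 to 9. WOX5 levels were 0 to 0.114 FPKM in QC-marker cells of wox5-1, against 163 to 262 FPKM in the wild type. It was at 0, 0 and 0.207 FPKM in wox5-1 CEI-marker cells, against 8.82, 27.3 and 0 FPKM in the wild type, so WOX5 cannot check the label of the library labelled wild type 4. Summed over 10 niche markers, QC-marker libraries had 1588 to 2381 FPKM and CEI-marker libraries 85.4 to 565 FPKM. CYCD6;1, at 0 to 5.75 FPKM in QC-marker and 0.748 to 22.7 FPKM in CEI-marker libraries, did not separate the populations. Nor did the 5 young ground tissue markers, which summed to 65.7 to 108 FPKM in QC-marker and 41.8 to 282 FPKM in CEI-marker libraries. Green-tissue markers summed to 12950 FPKM in wox5-1 CEI-marker library 1 and to at most 46.5 FPKM elsewhere. The 6 root cap markers summed to 2422 FPKM in the CEI-marker library labelled wild type 4, and to between 10.5 and 990 FPKM elsewhere. The results are therefore also given without these 2 libraries and wild-type QC-marker library 2, as one alternative, wherever that changes a call.

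Within each class most of the transcript came from 1 to 3 genes. IPT5 made up 88.1% of the summed IPT level over the mean of the 4 groups, AHK4 (the receptor also called CRE1 or WOL) made up 69.0% of the receptors, and LOG7 made up 50.5% of the LOG genes. LOG7's share was 62.5% in wox5-1 QC-marker cells, against 32.3% in wild-type QC-marker cells, where LOG8 held 40.1%. AHP1 and AHP3 held 39% and 37.3% of the phosphotransfer level, and ARR10, ARR1 and ARR12 held 35.4%, 28.5% and 26.4% of the type-B level. The order was not the same in every group, since AHP3 held 54.9% in wild-type QC-marker cells, and ARR10 held 25.9% in wox5-1 QC-marker cells, against 49.0% in those of the wild type. Among type-A genes ARR8, ARR4 and ARR3 had pooled shares of 26.7%, 26.3% and 26.0%, which hide differences between groups. In QC-marker cells ARR3 held 34.9% in wox5-1, against 10.5% in the wild type, and ARR8 20.7% in wox5-1, against 39.1% in the wild type. These wild-type shares come from group means and rest in part on wild-type QC-marker library 2. ARR8 was at 168 FPKM there, against 42.2 and 38.7 FPKM in libraries 1 and 3. ARR10 was at 110 FPKM, against 56.0 and 33.7 FPKM, and LOG8 at 72.6 FPKM, against 32.7 and 37.4 FPKM. ARR3 was at 0.856 FPKM, against 50.6 and 15.3 FPKM. The CKX genes were low in nearly all libraries. CKX7, which encodes a cytosolic cytokinin oxidase, had the highest mean of them, and the summed level of all 7 was 7.83 ± 0.669 FPKM in wox5-1 QC-marker cells (SD, n = 4), against 10.5 ± 5.02 FPKM in the wild type (SD, n = 3).

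**Figure D1:**
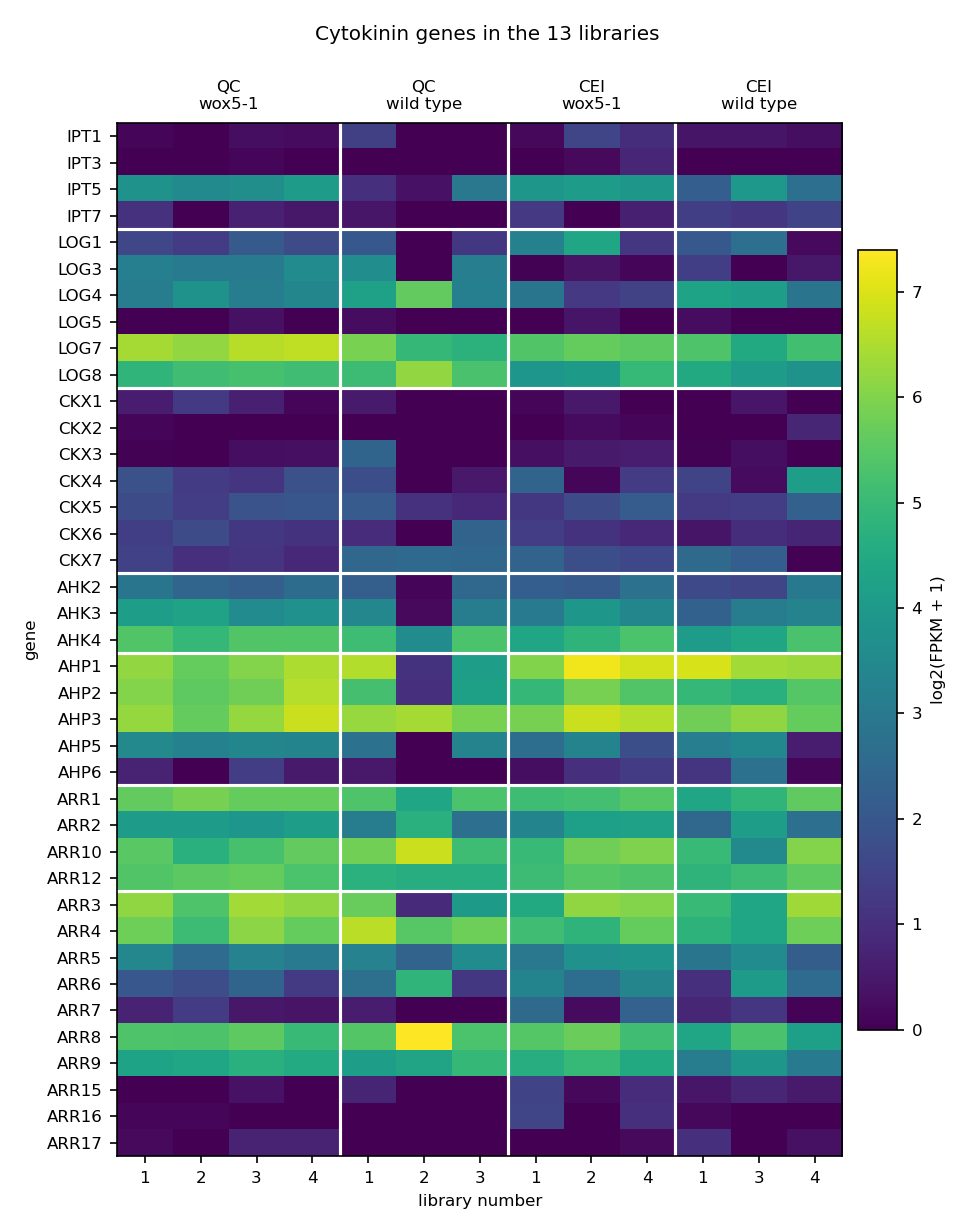
Expression of the 39 cytokinin genes (rows, grouped by class) in the 13 libraries (columns, grouped by cells and genotype), as log2(FPKM + 1). LOG7, AHP1, AHP3, ARR1, ARR10, ARR12, ARR4 and ARR8 were among the brightest, IPT3, LOG5, CKX2, ARR16 and ARR17 were at 1.91 FPKM or less everywhere, and wild-type QC-marker library 2 had the most genes at 0 (17 of 39).

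The genes that did not reach the expression threshold were near the lower limit of these libraries. IPT3, which is known from the phloem, was listed at 0 in 10 of the 13 libraries and reached 0.743 FPKM at most, in wox5-1 CEI-marker library 4. ARR16 and ARR17, a pair of type-A genes, were at 0 in all 3 wild-type QC-marker libraries and reached 1.91 and 0.985 FPKM elsewhere. ARR15 reached 1.85 FPKM, IPT1 1.94 FPKM, CKX1 1.40 FPKM, CKX2 0.721 FPKM and LOG5 0.334 FPKM. CKX3 was at 4.24 FPKM in wild-type QC-marker library 1 and at 0.518 FPKM or less in the others. At the estimated depth, 1 fragment on a transcript of 1000 bases is worth 0.0261 to 0.0403 FPKM in the wox5-1 QC-marker libraries, against 0.129 to 0.167 FPKM in those of the wild type. A value of 0 therefore sets a higher upper limit in the shallow wild-type libraries.

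The labels and files do not state whether strand was used in counting. For each of ARR1, ARR6, ARR8, ARR9, AHP3, LOG4, CKX1, CKX2, CKX5 and CKX6, another RefSeq gene model overlaps between its start and end. Some of their fragments may therefore belong to that model. The strand of these overlaps and their extent in exons were not examined.

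**Figure D2:**
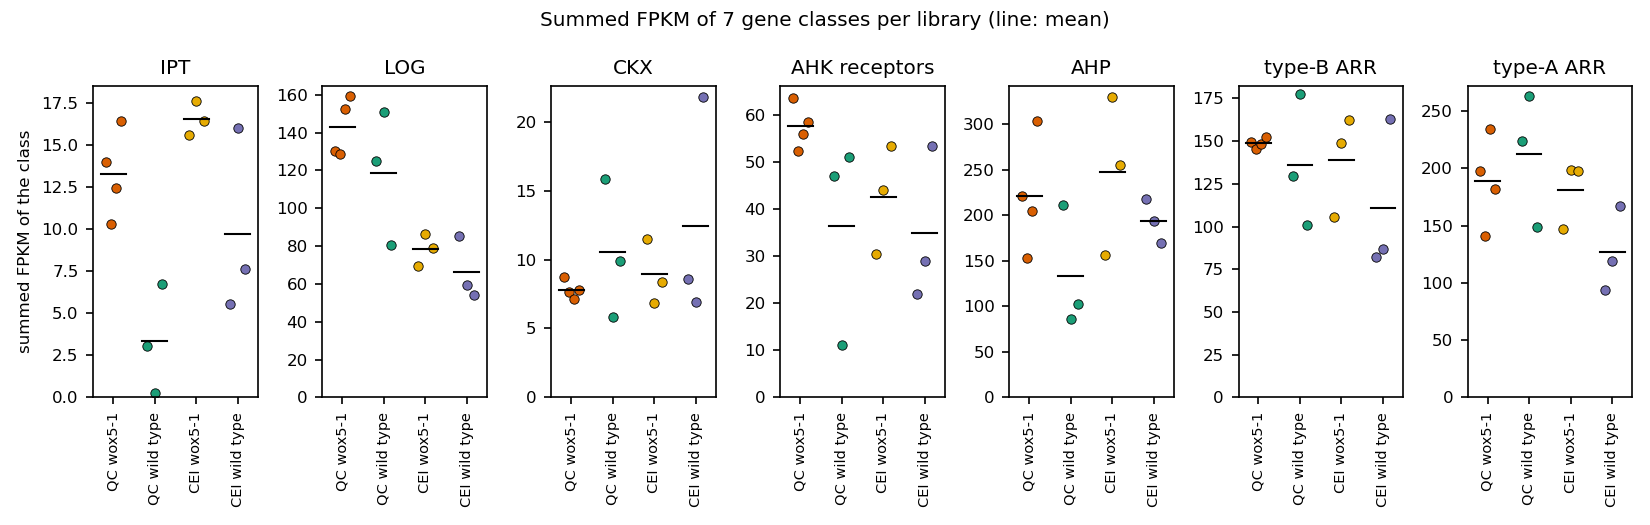
Summed FPKM of each of the 7 gene classes per library (points), with the group mean (line). The LOG sums of wox5-1 QC-marker cells (128.7 to 159.3 FPKM) lay above all 3 of wox5-1 CEI-marker cells (69.6 to 86.3 FPKM). The IPT sums of wox5-1 QC-marker cells (10.3 to 16.4 FPKM, 95.1% of the mean from IPT5) lay above all 3 of wild-type QC-marker cells (0.284 to 6.75 FPKM). So did the AHK sums (52.4 to 63.5 FPKM, against 11.1 to 51.1 FPKM), and the other classes overlapped between these genotypes.

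The first comparison asked how the cytokinin genes stood in QC-marker cells without WOX5. No member passed the test in wox5-1 against wild-type QC-marker cells, but IPT5, LOG7 and AHP2 lay just outside it, with every wox5-1 library above every wild-type library. The test was limma on log2(FPKM + 1), 2-sided, with Benjamini-Hochberg adjustment over the 21574 genes tested and a threshold of 0.05. It called 0 of the 30 tested members, against 3.43% of all tested genes (3.05% higher and 0.38% lower in wox5-1). At an unadjusted p under 0.05, 7 members were higher (IPT5, LOG7, AHP2, ARR3, ARR12, AHK3 and AHP1) and 1 was lower (CKX7), where 16.8% of all tested genes were higher and 2.86% lower at that threshold, so these counts are near the background. Fold changes on this scale understate those of low genes.

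IPT5 (AT5G19040) encodes an isopentenyltransferase of the first step of synthesis. Its level was 12.8, 10.3, 11.6 and 15.9 FPKM in wox5-1 QC-marker libraries 1 to 4, against 0.999, 0.284 and 6.75 FPKM in libraries 1 to 3 of the wild type. All 4 wox5-1 values lay above the wild-type ones, and library 3 was by far the highest of the wild type. The log2 change was 2.32 (SE 0.609, 95% interval 1.01 to 3.62, limma adjusted p = 0.0528). Leaving out wild-type library 3 raised it to 3.07 and past the threshold (adjusted p = 0.0161), and leaving out library 2 gave 1.78 (adjusted p = 0.11). It also passed without CEI-marker library 3 or 4 of the wild type, which bear only on the estimated spread (adjusted p = 0.0423 and 0.0496). IPT7 (AT3G23630), the only other tested gene of this class, was at 1.07, 0, 0.596 and 0.395 FPKM in wox5-1, against 0.37, 0 and 0 FPKM in the wild type. Those groups overlapped.

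LOG7 (AT5G06300), the most abundant LOG gene over the mean of the 4 groups, was at 84.4, 73.0, 96.7 and 102 FPKM in wox5-1 QC-marker cells, against 59.6, 29.5 and 25.9 FPKM in the wild type. The groups did not overlap, and wild-type library 1 was nearest to wox5-1. Its change on the log2 scale was 1.28 (SE 0.348, 95% interval 0.54 to 2.03, limma adjusted p = 0.0585). The change passed at 1.64 once wild-type library 1 was left out (adjusted p = 0.0154), and also without wild-type CEI-marker library 3 or 4 (adjusted p = 0.0454 and 0.0474). Those were the only passes among the 13 fits with 1 library left out, in which the change ranged from 1.06 to 1.64. Over all 24 alternatives it passed in 5, with limma adjusted p up to 0.182. The other LOG genes did not share that pattern. LOG8 was at 27.7 to 37.3 FPKM in wox5-1, against 32.7, 72.6 and 37.4 FPKM in the wild type (a log2 change of -0.42). LOG4 was at 7.78, 12.8, 7.88 and 9.52 FPKM in wox5-1, against 17.9, 48.5 and 8.09 FPKM in the wild type (a log2 change of -0.98, SE 0.622). Both overlapped between the genotypes. LOG3 stood at 8.24, 7.32, 7.27 and 10.8 FPKM in wox5-1, against 11.3, 0 and 8.01 FPKM in the wild type, and its log2 change of 0.95 turned to -0.18 without wild-type library 2.

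The breakdown enzyme CKX7 (AT5G21482) was the 1 member lower in every wox5-1 QC-marker library than in every wild-type one. It was at 1.76, 1.02, 1.16 and 0.795 FPKM in wox5-1, against 4.45, 4.79 and 4.64 FPKM in the wild type. The 3 wild-type values were close to each other and the groups did not overlap. The log2 change of -1.38 (SE 0.573) did not pass (limma adjusted p = 0.199), and without the 3 libraries that stand apart it was -1.36 and passed (adjusted p = 0.0304). That fit called 1851 of 20884 genes, against 741 of 21574 with all libraries. CKX4, CKX5 and CKX6 had log2 changes of 0.77, 0.40 and 0.24, each smaller than its SE.

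**Figure D3:**
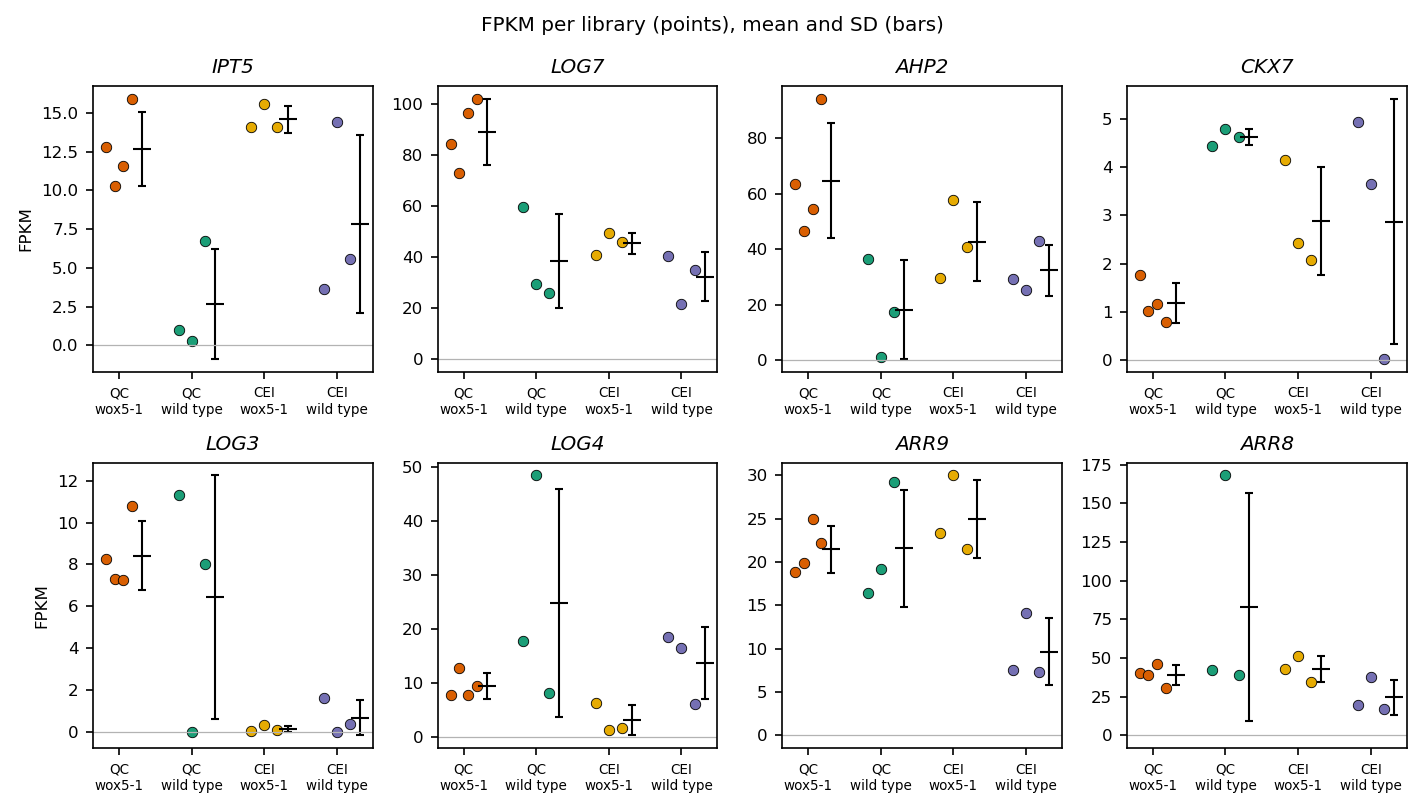
FPKM of 8 cytokinin genes in each library (points), with the group mean and SD (bars), for QC-marker and CEI-marker cells of wox5-1 and of the wild type. IPT5, LOG7 and AHP2 were above the wild type and CKX7 below it in all 4 wox5-1 QC-marker libraries, LOG3 was at 1.6 FPKM or less in CEI-marker cells, and ARR8 reached 168 FPKM in wild-type QC-marker library 2.

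The 3 receptor genes and the 5 phosphotransfer genes all had log2 changes above 0 in QC-marker cells, as had 63.7% of all tested genes, and none of the 8 was called. Wild-type library 2 was at or near 0 for most of them, with 0.0862 FPKM for AHK2, 0.148 for AHK3, 1.14 for AHP1, 0.979 for AHP2, and 0 for AHP5 and AHP6. AHK3 (AT1G27320) was at 16.4, 18.4, 10.9 and 12.4 FPKM in wox5-1 QC-marker cells, against 9.7, 0.148 and 7.75 FPKM in the wild type, with no overlap (log2 change 1.68, SE 0.674, limma adjusted p = 0.186, and 0.65 without wild-type library 2). AHK4 (AT2G01830) was at 40.8, 29.7, 41.3 and 41.0 FPKM in wox5-1, against 33.7, 10.9 and 38.7 FPKM in the wild type (a log2 change of 0.62, SE 0.453). AHK2, the lowest receptor, had a log2 change of 0.90 (SE 0.62), and both it and AHK4 overlapped. AHP2 (AT3G29350) was at 63.7, 46.7, 54.5 and 94.2 FPKM in wox5-1, against 36.5, 0.979 and 17.3 FPKM in the wild type. Its groups did not overlap, and its log2 change was 2.52 (SE 0.724, 95% interval 0.97 to 4.07, limma adjusted p = 0.0725). Without wild-type library 2 that change was 1.28 (adjusted p = 0.109), and without library 1 it was 3.4 and passed (adjusted p = 0.0131).

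AHP1 (AT3G21510) was at 72.4, 48.8, 64.5 and 88.6 FPKM in wox5-1 QC-marker cells, against 92.8, 1.14 and 16.7 FPKM in the wild type. Wild-type library 1 was above all of wox5-1, so the groups overlapped. The log2 change of 2.16 (SE 0.856, limma adjusted p = 0.181) was 0.74 without library 2 and 3.47 without library 1, where it passed (adjusted p = 0.01). AHP3 was at 48.9 to 111 FPKM in wox5-1, against 75.9, 84.1 and 59.8 FPKM in the wild type, and overlapped (log2 change 0.03, 95% interval -0.71 to 0.76). AHP5 was at 8.57 to 10.1 FPKM in wox5-1, against 5.74, 0 and 8.98 FPKM in the wild type (a log2 change of 1.34, SE 0.825). AHP6, a pseudo-phosphotransfer protein that inhibits the relay, was at 1.55 FPKM or less in all 7 libraries.

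Among type-B regulators, which carry the signal to the genome, ARR12 and ARR1 did not overlap between the genotypes. ARR12 (AT2G25180) was at 41.2, 45.7, 48.9 and 38.6 FPKM in wox5-1, against 25.6, 23.2 and 23.6 FPKM in the wild type (a log2 change of 0.82, SE 0.296, limma adjusted p = 0.14). Without the 3 libraries that stand apart its change was 0.80 and passed (adjusted p = 0.0385). ARR1 (AT3G16857) was at 48.4, 58.3, 48.8 and 49.0 FPKM in wox5-1, against 40.5, 19.5 and 38.2 FPKM in the wild type (a log2 change of 0.69, SE 0.361). ARR10 (AT4G31920) ran the other way in its mean, with 44.3, 25.1, 36.8 and 48.0 FPKM in wox5-1, against 56.0, 110 and 33.7 FPKM in the wild type (a log2 change of -0.65, SE 0.547), and overlapped. The summed type-B level was 149 ± 3.08 FPKM in wox5-1 (SD, n = 4), against 136 ± 38.7 FPKM in the wild type (SD, n = 3).

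The type-A genes, whose transcripts are classic readouts of cytokinin signalling, had a median log2 change of 0.01 over the 7 tested. ARR3 (AT1G59940) was at 71.5, 39.8, 81.6 and 70.4 FPKM in wox5-1 QC-marker cells, against 50.6, 0.856 and 15.3 FPKM in the wild type. The groups overlapped through wild-type library 1. The log2 change was 2.48 (SE 0.855, limma adjusted p = 0.125), 1.16 without wild-type library 2 and 3.55 without library 1, where it passed (adjusted p = 0.0207). ARR4, a close relative of ARR3, had a log2 change of -0.32 (SE 0.419). ARR8 (AT2G41310) was at 40.4, 39.2, 46.1 and 30.5 FPKM in wox5-1, against 42.2, 168 and 38.7 FPKM in the wild type, where library 2 alone was high (log2 change -0.74, SE 0.47). ARR5 and ARR9 differed by 0.01 (SE 0.502) and 0.02 (SE 0.364) on the log2 scale. ARR6 was at 3.06, 2.35, 4.22 and 1.39 FPKM in wox5-1, against 5.71, 27.5 and 1.3 FPKM in the wild type. ARR7 was at 0.651, 1.51, 0.386 and 0.302 FPKM in wox5-1, against 0.473, 0 and 0 FPKM in the wild type. Both overlapped.

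Of the 30 tested members, 6 did not overlap and were higher in wox5-1 QC-marker cells, and 1 was lower. Those shares are near the 17.8% and 5.82% of all tested genes that did the same. The members' median log2 change was 0.54, and that of all tested genes was 0.32. Another scaling moved the median of all tested genes to 0.19 (median-of-ratios) and -0.07 (quantile normalization), so part of the general excess of positive changes depends on the scaling. The calls over all genes were 659 higher and 82 lower, 314 and 72 with median-of-ratios scaling, and 343 and 111 with quantile normalization. IPT5 then had log2 changes of 2.10 and 1.34, LOG7 of 1.12 and 1.21, and AHP2 of 2.33 and 1.66.

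Cell markers and depth also differed between the QC-marker groups. Of 10 niche markers, 5 (WOX5 itself, AGL42, BBM, WIP5 and TEL1) were lower in every wox5-1 library than in every wild-type one, and 0 were higher. RGF3 leaned the other way, with overlap (1290 to 1560 FPKM in wox5-1, against 670, 759 and 1390 FPKM). The sums of the 10 overlapped, at 1720 to 2006 FPKM in wox5-1, against 1588 to 2381 FPKM. Of 5 young ground tissue markers, 1 (CYCD6;1) was higher without overlap (4.56 to 5.75 FPKM in wox5-1, against 0.658, 0 and 2.07 FPKM) and 1 (NUC) lower. Of 6 root cap markers, 2 (BRN1 and BRN2) were lower in that way, and the 6 summed to 207.5 to 269 FPKM in wox5-1, against 163 to 990 FPKM in the wild type. SMB and FEZ leaned the other way, with overlap. SMB was at 55.3 to 87.5 FPKM in wox5-1, against 11.4, 46.3 and 85.6 FPKM in the wild type. FEZ was at 48 to 78.6 FPKM in wox5-1, against 9.5, 12.6 and 51 FPKM in the wild type. Of 8 stele markers, 3 (TMO5, PEAR1 and VND7) were higher in every wox5-1 library, all at 4.95 FPKM or less. PEAR1 was at 0.156 to 0.691 FPKM in wox5-1, against 0 in the shallower wild-type libraries. The sum of the 8 was not higher, at 45.1 to 87.6 FPKM in wox5-1, against 56.6 to 126 FPKM in the wild type. The 7 epidermis markers, none at 0, summed to 997 to 1684 FPKM in wox5-1, against 159 to 970 FPKM in the wild type, but 1 of them (RSL4) was higher without overlap and 1 (WER) lower. PRP3 was the largest part of the sum in wox5-1, at 603 to 1090 FPKM in wox5-1, against 53.7 to 626 FPKM in the wild type, and WER was at 12.2 to 18.7 FPKM in wox5-1, against 34.2 to 56.7 FPKM in the wild type. Depth was greater in wox5-1. The part of markers or depth in the differences of the cytokinin genes was not tested.

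**Figure D4:**
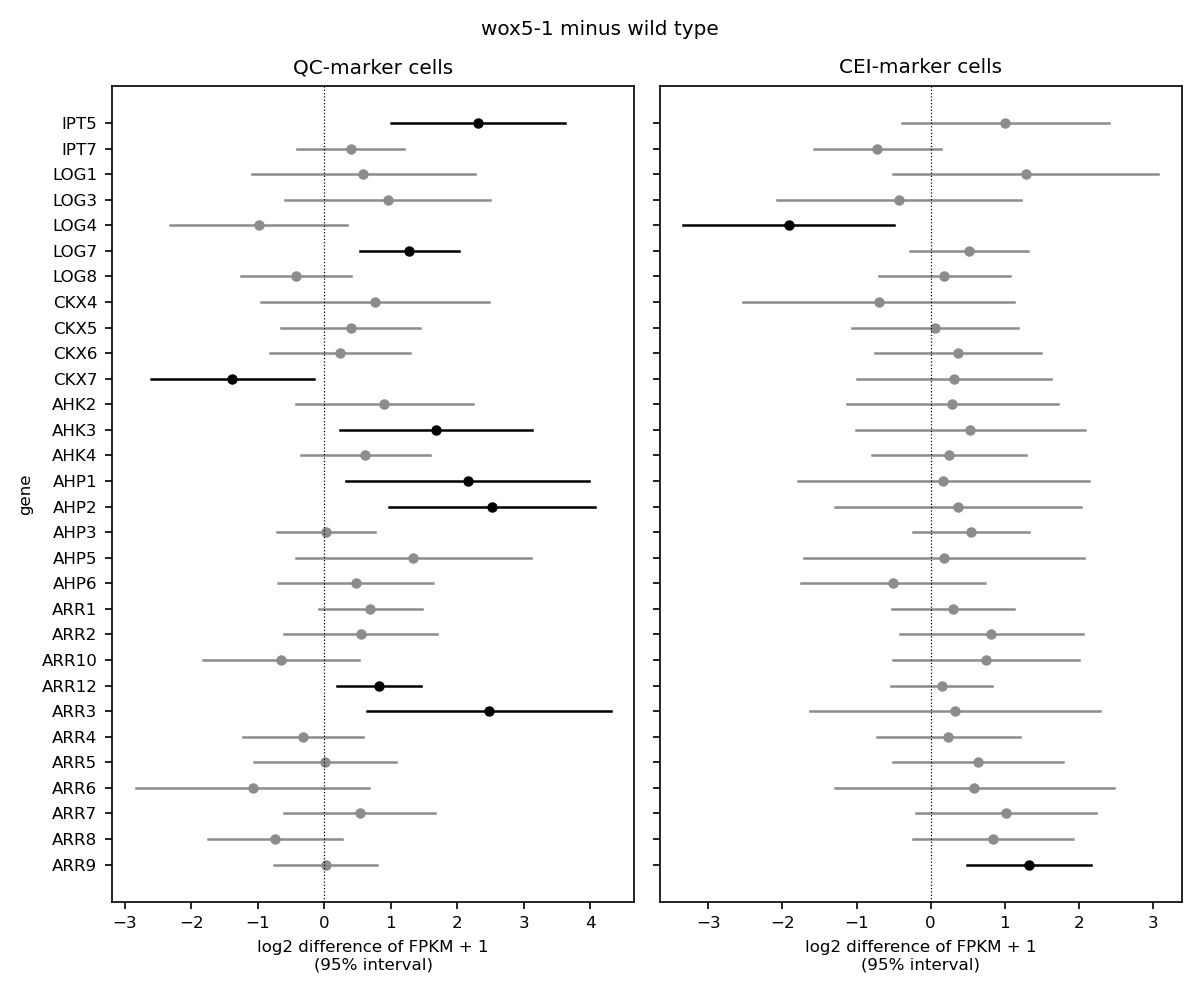
Log2 difference of FPKM + 1, wox5-1 minus wild type, for the 30 tested cytokinin genes (points) with 95% intervals (lines), in QC-marker cells (left) and CEI-marker cells (right). Black marks an unadjusted p under 0.05 and grey the rest, and no gene passed the adjusted threshold in either panel.

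In CEI-marker cells no member passed in wox5-1 against the wild type, and the smallest unadjusted p belonged to ARR9 and LOG4. Limma called 0 of the 30 tested members, against 0.0278% of all tested genes (0.0185% higher, 0.00927% lower). ARR9 (higher) and LOG4 (lower) were the only ones with an unadjusted p under 0.05, where 8.04% of all tested genes had one (5.48% higher and 2.56% lower). Without the 3 libraries that stand apart limma called 4574 of 20884 genes, against 6 of 21574 with all. A pass in that fit, as given below for ARR9, LOG4 and ARR10, was therefore common among the genes.

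ARR9 (AT3G57040), a type-A gene, was at 23.4, 30.0 and 21.5 FPKM in wox5-1 CEI-marker libraries 1, 2 and 4, against 7.57, 14.1 and 7.34 FPKM in libraries 1, 3 and 4 of the wild type. All 3 wox5-1 values lay above the wild type. This gave a log2 change of 1.33 (SE 0.389, 95% interval 0.49 to 2.16, limma adjusted p = 0.442), and 1.21 without the 3 libraries that stand apart, where it passed (adjusted p = 0.0414). In QC-marker cells the same gene was at 18.8, 19.9, 25 and 22.2 FPKM in wox5-1, against 16.4, 19.2 and 29.2 FPKM in the wild type, so its wild-type CEI-marker cells had the lowest level of the 4 groups. ARR8, its closest relative, was at 43.1, 51.1 and 34.4 FPKM in wox5-1 CEI-marker cells, against 19.4, 37.6 and 17.0 FPKM in the wild type (a log2 change of 0.84, SE 0.503), and overlapped. ARR7 was at 4.94, 0.164 and 4.04 FPKM in wox5-1, against 0.751, 1.27 and 0.0517 FPKM in the wild type (a log2 change of 1.02, SE 0.567). All 7 tested type-A genes had log2 changes above 0 here (median 0.64, and 0.08 over all tested genes, of which 54.5% were above 0), none of them called. Fragments of ARR8 and ARR9, as of the pairs ARR3 and ARR4 or ARR5 and ARR6, may be assigned to the wrong relative.

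LOG4 (AT3G53450) encodes an enzyme that releases free cytokinin bases. In CEI-marker cells its level was 6.35, 1.35 and 1.69 FPKM in wox5-1 libraries 1, 2 and 4, against 18.6, 16.6 and 6.16 FPKM in libraries 1, 3 and 4 of the wild type. The groups met only between wox5-1 library 1 and the library labelled wild type 4, both of which stand apart in their cell markers. Its change on the log2 scale was -1.91 (SE 0.665, limma adjusted p = 0.551), and it was -2.89 and passed without the 3 libraries (adjusted p = 0.00204). LOG7 was at 40.8, 49.3 and 45.8 FPKM in wox5-1, against 40.4, 21.5 and 34.8 FPKM in the wild type, just without overlap (log2 change 0.52, SE 0.372). LOG1 spread from 1.24 to 19.7 FPKM in wox5-1 and from 0.148 to 5.48 FPKM in the wild type.

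The IPT genes differed from each other in CEI-marker cells. IPT5 was at 14.1, 15.6 and 14.1 FPKM in wox5-1, against 3.61, 14.4 and 5.55 FPKM in the wild type, where library 3 reached the level of the mutant (log2 change 1.01, SE 0.651). IPT7 was at 1.35, 0 and 0.572 FPKM in wox5-1, against 1.61, 1.23 and 1.85 FPKM in the wild type (a log2 change of -0.72, SE 0.4, limma adjusted p = 0.646), and overlapped. CKX7 showed no such split as in QC-marker cells, at 4.16, 2.43 and 2.07 FPKM in wox5-1, against 4.94, 3.65 and 0.022 FPKM in the wild type. CKX4 reached 16.5 FPKM in the library labelled wild type 4, and was at 0.0698 to 4.18 FPKM in the other 5 libraries.

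The relay genes overlapped between the genotypes of CEI-marker cells. AHK4 was at 19.5, 26.9 and 38.2 FPKM in wox5-1, against 16.0, 19.3 and 37.6 FPKM in the wild type. AHP1 was at 63.2, 151 and 117 FPKM in wox5-1, against 124, 81.6 and 76.4 FPKM in the wild type. ARR10 was at 30.8, 54.1 and 61.8 FPKM in wox5-1, against 30.9, 10.3 and 63.9 FPKM in the wild type. Its log2 change of 0.75 (SE 0.584) was 1.63 and passed without the 3 libraries (limma adjusted p = 0.0362). AHP6, the inhibitor, reached 5.88 FPKM in wild-type library 3 and was at 1.44 FPKM or less in the other 5 libraries. Of the 30 tested members 2, ARR9 and LOG7, did not overlap and were higher in wox5-1 (7.19% of all tested genes), and 0 were lower (3.81%).

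The third comparison set the populations against each other within wox5-1. LOG3 rose in QC-marker against CEI-marker cells and was the only member called, among 30 tested, where limma called 4.31% of all tested genes (2.64% higher and 1.67% lower). LOG3 (AT2G37210) is one of the LOG enzymes that release active bases. It was at 8.24, 7.32, 7.27 and 10.8 FPKM in wox5-1 QC-marker cells, against 0.0398, 0.301 and 0.0821 FPKM in wox5-1 CEI-marker cells. The lowest QC-marker value was far above the highest CEI-marker value. The log2 change was 3.03 (SE 0.72, 95% interval 1.49 to 4.58, limma adjusted p = 0.0302). The call was lost without any 1 of the 7 libraries compared (adjusted p from 0.0561 to 0.112, with log2 changes of 2.92 to 3.13), with median-of-ratios scaling (2.71, adjusted p = 0.0504), without a filter on low levels (adjusted p = 0.0503) and with a pseudocount of 0.1 (adjusted p = 0.0859).

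**Figure D5:**
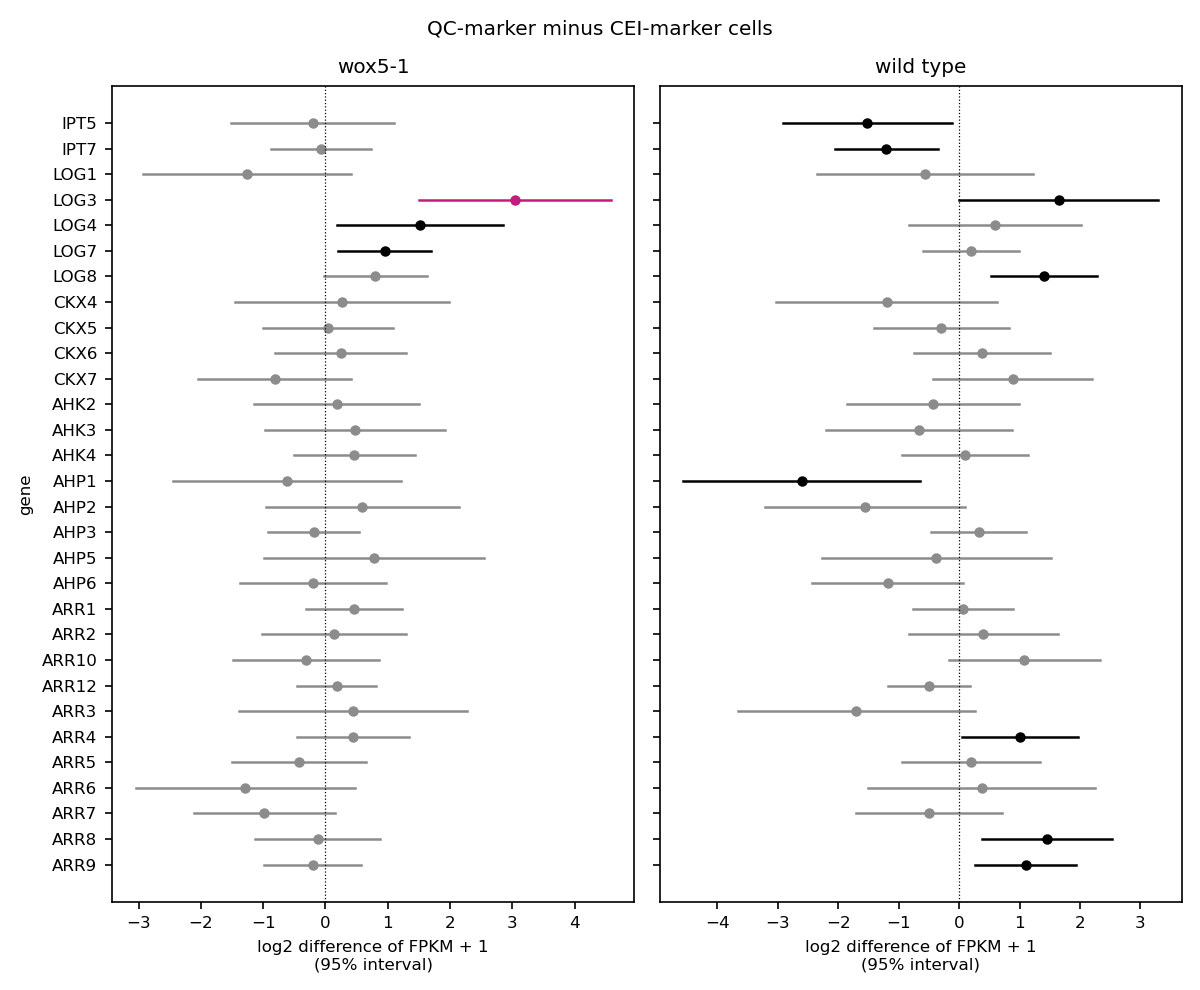
Log2 difference of FPKM + 1, QC-marker minus CEI-marker cells, for the 30 tested cytokinin genes (points) with 95% intervals (lines), in wox5-1 (left) and the wild type (right). LOG3 in wox5-1 (3.03) is the 1 gene past the adjusted threshold, shown in magenta, with an unadjusted p under 0.05 in black and the rest in grey.

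Other LOG genes had the next smallest p. LOG3, LOG7 and LOG4 were the 3 members higher at an unadjusted p under 0.05 and 0 were lower, where 12.8% of all tested genes were higher and 8.18% lower. LOG7, with the wox5-1 values given above, did not overlap between QC-marker and CEI-marker cells (a log2 change of 0.95, SE 0.348, limma adjusted p = 0.138). LOG4 did not overlap either (7.78 to 12.8 FPKM in QC-marker cells, against 1.35 to 6.35 FPKM in CEI-marker cells), with a log2 change of 1.52 (SE 0.622, adjusted p = 0.179) that was 2.04 and passed without the 3 libraries that stand apart (adjusted p = 0.00363). That fit called 6650 of 20884 genes, against 930 of 21574 with all libraries. LOG8 was at 27.7, 34.1, 37.3 and 34.2 FPKM in QC-marker cells, against 13.8, 15.3 and 30.2 FPKM in CEI-marker cells (a log2 change of 0.80, SE 0.386). LOG1 was the exception, at 1.46 to 3.25 FPKM in QC-marker cells, against 8.56, 19.7 and 1.24 FPKM in CEI-marker cells (a log2 change of -1.26, SE 0.782). The summed LOG level was 143 ± 15.6 FPKM in wox5-1 QC-marker cells (SD, n = 4), against 78.3 ± 8.4 FPKM in wox5-1 CEI-marker cells (SD, n = 3).

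In the other classes few members stood apart between the populations of wox5-1. IPT5 was at 10.3 to 15.9 FPKM in QC-marker cells, against 14.1 to 15.6 FPKM in CEI-marker cells (a log2 change of -0.21, 95% interval -1.51 to 1.1). CKX7 was at 0.795 to 1.76 FPKM in QC-marker cells, against 2.07 to 4.16 FPKM in CEI-marker cells, without overlap (log2 change -0.81, SE 0.573). ARR6 was at 3.06, 2.35, 4.22 and 1.39 FPKM in QC-marker cells, against 9.21, 5.44 and 9.41 FPKM in CEI-marker cells, also without overlap (log2 change -1.29, SE 0.821). The 7 tested type-A genes had a median log2 change of -0.20, and the 3 receptors one of 0.46, where all tested genes had 0.30. Log2 changes were above 0 for 17 of the 30 tested members and for 64.2% of all tested genes. Of the 30 tested members, 4 (LOG3, LOG4, LOG7 and ARR1) did not overlap and were higher in QC-marker cells and 2 (CKX7 and ARR6) were lower, against 26.5% and 9.72% of all tested genes. The 4 QC-marker values of ARR1 lay above its 33.1, 35.3 and 42.8 FPKM in wox5-1 CEI-marker cells (a log2 change of 0.46, SE 0.361). The median over all tested genes turned to -0.11 with median-of-ratios scaling, and the calls over all genes, 570 higher and 360 lower, turned to 265 and 476. Quantile normalization gave 553 and 620.

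The same populations in the wild type gave no called member of the 30 tested, where limma called 0.357% of all tested genes (0.25% higher and 0.107% lower). At an unadjusted p under 0.05, 5 members were higher in QC-marker cells (LOG8, LOG3, ARR8, ARR9 and ARR4) and 3 were lower (IPT7, IPT5 and AHP1), where 6.45% of all tested genes were higher and 5.68% lower. Log2 changes were above 0 for 16 of the 30 and for 45.4% of all tested genes. LOG8 (AT5G11950) had the smallest p. It was at 32.7, 72.6 and 37.4 FPKM in QC-marker cells, against 21.4, 15.6 and 12.8 FPKM in wild-type CEI-marker cells, without overlap (log2 change 1.41, SE 0.413, limma adjusted p = 0.212). LOG3 was at 11.3, 0 and 8.01 FPKM in QC-marker cells, against 1.6, 0 and 0.379 FPKM in CEI-marker cells. Both groups held a library at 0, so they overlapped, and 2 of the 3 QC-marker libraries were above all of the CEI-marker ones. The log2 change of 1.65 (SE 0.77, limma adjusted p = 0.412) was 2.78 and passed without QC-marker library 2 (adjusted p = 0.0276). Neither genotype effect on LOG3 passed, and the difference between the population effects of wox5-1 and of the wild type was 1.39 (SE 1.05, limma adjusted p = 0.603).

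Type-A genes ARR8 and ARR9 did not overlap between the wild-type populations. ARR8 was at 42.2, 168 and 38.7 FPKM in QC-marker cells, against 19.4, 37.6 and 17.0 FPKM in CEI-marker cells (a log2 change of 1.45, SE 0.503, limma adjusted p = 0.288, and 0.78 without QC-marker library 2). ARR9 was at 16.4 to 29.2 FPKM in QC-marker cells, against 7.34 to 14.1 FPKM in CEI-marker cells (a log2 change of 1.1, SE 0.389). ARR4 was at 99.3, 43.9 and 53.6 FPKM in QC-marker cells, against 26.3, 19.3 and 53.4 FPKM in CEI-marker cells, and overlapped (log2 change 1.01, SE 0.448). On the synthesis side IPT7, at 0.37, 0 and 0 FPKM in QC-marker cells, was below its 1.61, 1.23 and 1.85 FPKM in CEI-marker cells (a log2 change of -1.20, SE 0.4, limma adjusted p = 0.268). Those zeros lie in shallow libraries. IPT5 was at 0.999, 0.284 and 6.75 FPKM in QC-marker cells, against 3.61, 14.4 and 5.55 FPKM in CEI-marker cells (a log2 change of -1.52, SE 0.651, limma adjusted p = 0.381).

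AHP1, a phosphotransfer gene, was at 92.8, 1.14 and 16.7 FPKM in QC-marker cells of the wild type, against 124, 81.6 and 76.4 FPKM in CEI-marker cells. Library 1 of QC-marker cells lay inside the CEI-marker range and libraries 2 and 3 far below it. The log2 change of -2.60 (SE 0.915, limma adjusted p = 0.293) was -3.91 and passed without QC-marker library 1 (adjusted p = 0.02), and -1.19 without library 2. Of the 30 tested members, 3 (LOG8, ARR8 and ARR9) did not overlap and were higher in QC-marker cells and 2 (IPT7 and ARR12) were lower, against 5.98% and 4.07% of all tested genes. The QC-marker values of ARR12 given before lay below its 27.1, 32.6 and 46.0 FPKM in wild-type CEI-marker cells (a log2 change of -0.50, SE 0.316). The calls over all genes were 54 higher and 23 lower, and 35 and 31 with median-of-ratios scaling.

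Whether the wox5-1 effect differed between QC-marker and CEI-marker cells was tested directly, as the effect in QC-marker cells minus that in CEI-marker cells. No member passed, where limma called 0.0232% of all tested genes (0.00927% higher and 0.0139% lower). At an unadjusted p under 0.05, 0 members were higher and 2 were lower, where 7.19% of all tested genes were higher and 3.96% lower. These were ARR9 (-1.30, SE 0.533, limma adjusted p = 0.408) and ARR8 (-1.58, SE 0.689, adjusted p = 0.425), both type-A genes. Their effects were 0.02 and -0.74 in QC-marker cells and 1.33 and 0.84 in CEI-marker cells. IPT7 (1.12, SE 0.548) and AHP2 (2.15, SE 1.06) followed. Without wild-type QC-marker library 2 the differences were -0.90 for ARR8 and 0.91 for AHP2. LOG4 had a difference of 0.93 (SE 0.911), which was 2.54 and passed without the 3 libraries that stand apart (adjusted p = 0.0181). That fit called 2979 of 20884 genes, against 5 of 21574 with all libraries. The effects on IPT5 in the populations (2.32 and 1.01) differed by 1.31 (SE 0.892) and those on LOG7 (1.28 and 0.52) by 0.76 (SE 0.509), and neither difference passed.

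Beyond the 39 genes, 20 of 30 further genes of the pathway reached the expression threshold. In QC-marker cells 1 of the 20 was called, where 3.43% of all tested genes were, and 5 were higher at an unadjusted p under 0.05, where 16.8% of all tested genes were. KMD4 (AT3G59940), an F-box protein gene of a family that targets type-B response regulators for degradation, rose in wox5-1. It was at 36.6, 46.1, 23.2 and 27.8 FPKM in wox5-1, against 6.43, 0.138 and 4.85 FPKM in the wild type. All wox5-1 values lay above 3 times the highest of the wild type. The log2 change was 3.18 (SE 0.606, 95% interval 1.89 to 4.48, limma adjusted p = 0.0141), and it passed in 21 of 24 alternatives. Without wild-type library 2 it was 2.34 and still passed (adjusted p = 0.0146), and without wox5-1 libraries 1 or 2 the adjusted p was 0.051 and 0.0514. In CEI-marker cells KMD4 was at 16.0, 16.5 and 6.35 FPKM in wox5-1, against 9.99, 7.28 and 7.11 FPKM in the wild type, and overlapped (log2 change 0.52, SE 0.648). A RefSeq gene model overlaps KMD4, so the same doubt holds for it. No gene of the 20 was called in CEI-marker cells, between the wild-type populations or for the difference of effects. Without the 3 libraries that stand apart, the difference of effects passed for KMD4 (2.66 with all libraries, adjusted p = 0.0444 without the 3) and for CRF5 (3.77 with all, adjusted p = 0.0182 without). As given above, that fit called 2979 of 20884 genes.

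CRF5 (AT2G46310), one of the cytokinin response factors (AP2/ERF transcription factors), was at 13.5, 16.0, 16.9 and 14.5 FPKM in wox5-1 QC-marker cells, against 4.7, 0 and 7.27 FPKM in the wild type (a log2 change of 2.16, SE 0.672, limma adjusted p = 0.0929). That change was 1.24 without wild-type library 2, and 2.76 without library 3, where it passed (adjusted p = 0.0495). In CEI-marker cells the order was turned round, with 0.98, 1.27 and 0.537 FPKM in wox5-1, against 2.86, 10.1 and 3.59 FPKM in the wild type (a log2 change of -1.61, SE 0.718, limma adjusted p = 0.617), and without the 3 libraries it was -1.81 and passed (adjusted p = 0.0271). Neither pair of groups overlapped. The difference of the effects was 3.77 (SE 0.983, 95% interval 1.67 to 5.88, limma adjusted p = 0.218). Between the populations of wox5-1 CRF5 rose in QC-marker cells (log2 change 3.09, SE 0.672, limma adjusted p = 0.0214).

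Also between the wox5-1 populations, UGT76C2 (AT5G05860), which glucosylates cytokinins, rose in QC-marker cells, and ARR22 (AT3G04280), a type-C response regulator gene, fell. UGT76C2 was at 26.1, 33.7, 27.3 and 20 FPKM in QC-marker cells, against 8.83, 2.63 and 7.79 FPKM in CEI-marker cells (a log2 change of 2.01, SE 0.474, limma adjusted p = 0.0292). ARR22 was at 0.334, 0.158, 0.145 and 0.0978 FPKM in QC-marker cells, against 1.32, 4.27 and 5.49 FPKM in CEI-marker cells (a log2 change of -1.87, SE 0.485, limma adjusted p = 0.0436). Neither gene overlapped between the populations. The wox5-1 CEI-marker values of ARR22 lay above the 0.656, 1.31 and 1.15 FPKM of wild-type CEI-marker cells, the lowest of them only just (a log2 change of 1.09 in wox5-1, SE 0.519, limma adjusted p = 0.622). The calls of CRF5 and UGT76C2 were lost without any 1 of the 4 QC-marker libraries or without CEI-marker library 2 or 4, with adjusted p from 0.0518 to 0.146. That of ARR22 was lost without those libraries too and without wild-type CEI-marker library 1 or 3, with adjusted p from 0.0504 to 0.18. In the wild type UGT76C2 had a log2 change of 1.39 (SE 0.506, limma adjusted p = 0.315) between the populations. PUP14, which imports cytokinin at the plasma membrane, had 88.5, 66.5, 78.0 and 78.4 FPKM in wox5-1 QC-marker cells, against 18.3, 0.626 and 30.6 FPKM in the wild type (a log2 change of 2.98, SE 0.976, limma adjusted p = 0.109), and is named here after its values were seen, as are KMD2 (log2 change 1.36, SE 0.564) and UGT76C1 (1.39, SE 0.646). Without wild-type library 2 the change of PUP14 was 1.67 and that of UGT76C1 0.51. PUP14 too is overlapped by a RefSeq gene model.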

How the data were processed

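Each value is the FPKM of a gene in a library, as deposited by the authors for 33560 genes in 13 libraries. The submitters' processing notes name Cufflinks, with no version or role. Not given in the sources used here are the aligner, genome build, annotation and strand setting. Per the labels' protocols, cDNA was amplified with a low-input kit, and no molecular identifiers are named, so fragments are not independent molecules. Depth was estimated from the steps between FPKM values of genes with 1 transcript of at least 1000 exon bases. Of those values 30.9% to 45.6% came within 0.1 fragments of whole, against 20% by chance at a depth not fitted to them. The depth was picked to bring these same values near whole, so that contrast overstates its support. The depth entered no test.

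Libraries were grouped by their titles. One limma fit (version 3.58.1, R 4.3.3, with a mean-variance trend) used log2(FPKM + 1) of the 21574 genes with at least 1 FPKM in at least 3 libraries, with a mean for each of 4 groups and 9 residual degrees of freedom. P-values are 2-sided, Benjamini-Hochberg adjusted over all genes tested and called under 0.05. They measure the spread between libraries, and the fit takes that spread as equal in the 4 groups. The median SD over tested genes was 0.263 in wox5-1 and 0.924 in wild-type QC-marker cells. In CEI-marker cells it was 0.553 in wox5-1 and 0.685 in the wild type. SEs and intervals are therefore likely too narrow where wild-type QC-marker cells are compared, and too wide between the wox5-1 populations. On simulated data for wox5-1 against wild-type QC-marker cells, over 21574 genes, the fit recovered 0 of 50 genes with a log2 change of 1, 15 of 50 with one of 2, 45 of 50 with one of 4 and 50 of 50 with one of 6. For the difference of effects it recovered 0, 3, 24 and 42 of 50. Unlike the data, the simulation gave each gene the same spread in all 4 groups and no difference in depth. These rates may therefore differ from those of the real comparisons.

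The members and gene lists were chosen with earlier results of these data known. Values per library are given for members called, for the 4 with the smallest p in each comparison, for the most abundant of each class, and for members that do not overlap between groups. Of the further pathway genes they are given for those called and for the 2 with the smallest p in each genotype comparison. Alternatives were pseudocounts of 0.1 and 5, no filter, a filter at 5 FPKM, median-of-ratios scaling, quantile normalization, array weights, no trend, fits of only the groups compared, each library left out in turn, a replicate block, and a fit without 3 libraries that stand apart (wild-type QC-marker library 2, wox5-1 CEI-marker library 1 and the CEI-marker library labelled wild type 4). Promoter and protein sequences and coordinates were not used here.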

Additional observations from a re-analysis of the deposited data

Results flagged for a closer look

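In the group of 4 wox5-1 QC-marker libraries, the only one large enough to test, 5 of the 39 members had 1 library far from the other 3 by Dixon's test. For 3 of the 5 the other libraries were all at 0, which fixes the test's outcome. Of the 36 members without such zeros 2 stood apart, and chance gives about 1 in 20. ARR1, a type-B regulator gene, was at 58.3 FPKM in library 2, and at 48.4 to 49.0 FPKM in the others. AHK4, the main receptor gene, was at 29.7 FPKM in library 2, and at 40.8 to 41.3 FPKM in the others. The 3 with zeros were ARR15 at 0.283 FPKM, LOG5 at 0.256 FPKM and IPT3 at 0.07 FPKM, all in library 3 and at 0 in the others.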

How the results depend on the processing

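Across the named genes, 1098 values kept their direction and side of the threshold, 37 lost and 35 gained the call, and 4 reversed. LOG3 in QC-marker cells reversed to -0.0774 with array weights and to -0.18 without the 3 libraries that stand apart, and ranged from -0.18 (without wild-type library 2) to 1.63 with 1 library left out, and ARR1 between the wox5-1 populations reversed to -0.017 with median-of-ratios scaling. The cause of these changes was not tested.

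In QC-marker cells the count of members called, 0, was 2 with a pseudocount of 5 (AHP2 and LOG7) and with a filter at 5 FPKM (IPT5 and LOG7), 1 with array weights and 1 with no trend (IPT5 both times), and 3 without the 3 libraries (ARR12, AHP2 and CKX7). The count of genes called, 741, was 420 with no filter, 386 with median-of-ratios scaling, 454 with quantile normalization, 1251 with array weights and 1851 without the 3 libraries. In CEI-marker cells 3 members (ARR9, ARR10 and LOG4) were called without the 3 libraries, and 6 genes called became 91 with no filter, 2 each with a filter at 5 FPKM, quantile normalization and no trend, 14 with array weights, 0 in the fit of only the groups compared and 4574 without the 3 libraries. Between the wild-type populations 1 member (LOG3) was called without the 3 libraries, and 77 genes became 46 with a pseudocount of 0.1, 51 with no filter, 1 with only the groups compared and 700 without the 3 libraries. Between the wox5-1 populations the 1 member called became 0 with a pseudocount of 0.1, with no filter and with median-of-ratios scaling, 5 with array weights (LOG3, LOG4, LOG7, AHP5 and ARR7), 4 with only the groups compared (LOG3, LOG4, LOG7 and ARR6) and 2 without the 3 libraries (LOG3 and LOG4), and 930 genes became 526 with a pseudocount of 0.1, 7502 with array weights, 5298 with only the groups compared and 6650 without the 3 libraries. For the difference of effects 1 member (LOG4) was called without the 3 libraries, and 5 genes became 15 with no filter, 0 with a filter at 5 FPKM, 17 with quantile normalization, 67 with array weights and 2979 without the 3 libraries.

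With 1 library left out in turn, members called ranged from 0 to 4 in QC-marker cells, 0 to 0 in CEI-marker cells, 0 to 1 between the populations of the wild type and of wox5-1, and 0 to 0 for the difference of effects. Genes called ranged from 199 to 1514, 1 to 25, 20 to 345, 221 to 2520 and 0 to 59 in the same order. The median residual SD was 0.434 without the 3 libraries (20884 genes tested), which narrows it by construction, against 0.749 with all (21574 genes tested). With the replicate block 0 members and 179 genes were called in QC-marker cells, and KMD4 had an adjusted p of 0.0504. Same-numbered libraries there correlated at 0.0315, 0.0897 and -0.0571 in their deviations, and the other pairs at -0.117 to 0.106. So few libraries show no sign of a pairing by number but cannot exclude one. No paired analysis was possible for the other comparisons because the columns of CEI-marker cells carry numbers other than those of the titles.

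Depth limits the wild-type QC-marker group most, at 5.99 to 7.77 M fragments, and levels near 1 FPKM or below, such as those of IPT7, rest on few fragments there.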
